A study of Mus musculus with 12 samples.

Results

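The standard proteasome subunits are the genes of the 26S proteasome that most mouse cells use: the 7 alpha and 7 beta subunits of the 20S core and 17 subunits of the 19S regulator. They were chosen by name, without the subunits of the immunoproteasome. All 31 of 31 symbols were found among 57186 genes of the deposited table, and all 31 passed the filter on low counts, as did 19255 genes in all.

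The proteasome is the barrel-shaped protease that degrades proteins tagged with ubiquitin. In the 20S core, outer rings of alpha subunits form the gate and inner rings of beta subunits hold the active sites. The 19S regulator caps the core: its base holds a ring of ATPases that unfold substrates and push them into the core, and its lid carries the enzyme that removes ubiquitin. In cells exposed to interferon the 3 catalytic beta subunits can be replaced by the immunoproteasome subunits, which changes the peptides made for MHC class I.

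The study sequenced 12 tumours that formed in mice after injection of 4T1, a cell line from a mouse mammary carcinoma. Parental cells gave 6 of them (WT), and the cells of the other 6 carried CRISPR/Cas9 silencing of Cosmc (C1galt1c1), the chaperone needed to extend O-linked glycans, so that the cells show the short Tn antigen (Tn). Polyadenylated RNA of whole tumour tissue was sequenced, and the 6 tumours of a group are called biological replicates. Mouse strain, age, time of growth and number of silenced clones are not given in the sources used here. All tissue holds host cells with an unedited Cosmc gene.

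Total counts ran from 113575859 to 156880766 per tumour, above the sequencing depth stated in the design text even if both mates of each pair were counted; the reason was not tested. Each member had at least 2687 counts in every tumour. C1galt1c1, which checks the labels, was at 19.6 ± 3.05 CPM (counts set to a common library size) in WT and 11.3 ± 0.775 in Tn tumours (SD, n = 6 each), and every Tn tumour lay below every WT tumour. Its log2 fold change, Tn over WT, was -0.80 (adjusted p = 0.000201). All 6 epithelial markers were present, with a summed level of 1832 to 3845 CPM in WT and 1741 to 3193 CPM in Tn tumours. WT tumour 6, Tn tumour 4 and Tn tumour 6 stood apart by high adipocyte, B cell and keratinocyte genes, and the counts of subunits below are also given without them.

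In Tn tumours 15 of the 31 subunits rose and 0 fell, and 16 did not pass the test (edgeR quasi-likelihood test, adjusted p under 0.05, 6 tumours in each group). Of all genes tested, 19.5% rose and 17.4% fell. By unadjusted p under 0.05, 16 of the 31 subunits differed, all of them higher. In either direction, 9009 of all 19255 genes tested did so, and 3007 of 5642 within the members' range of mean CPM. DESeq2 also called 15 subunits higher and 0 lower. The median log2 fold change of the 31 subunits was 0.19, against 0.015 over all genes tested. Of the genes within the members' range of mean CPM, 25.2% rose and 18.8% fell, with a median of 0.04. Fold changes were small: the largest was 0.54 for Psmb2 and the lowest -0.15 for Psmd8.

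The rises were unevenly spread over the complex, although the difference between core and regulator was itself not tested. Of the 14 core subunits 10 rose, with a median log2 fold change of 0.34. Of the 17 regulator subunits 5 rose, with a median of 0.07. All 6 Tn tumours lay above all 6 WT tumours for 8 subunits, 7 of the core and 1 of the regulator, and below them for 0. Over all genes tested the groups did not overlap in 17.2%, with 8.81% higher and 8.35% lower in Tn. Without the 3 tumours that stand apart, 14 subunits rose and 0 fell. With upper-quartile scaling 10 rose and 0 fell, and the medians were 0.28 for the core and 0.02 for the regulator.

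**Figure D1:**
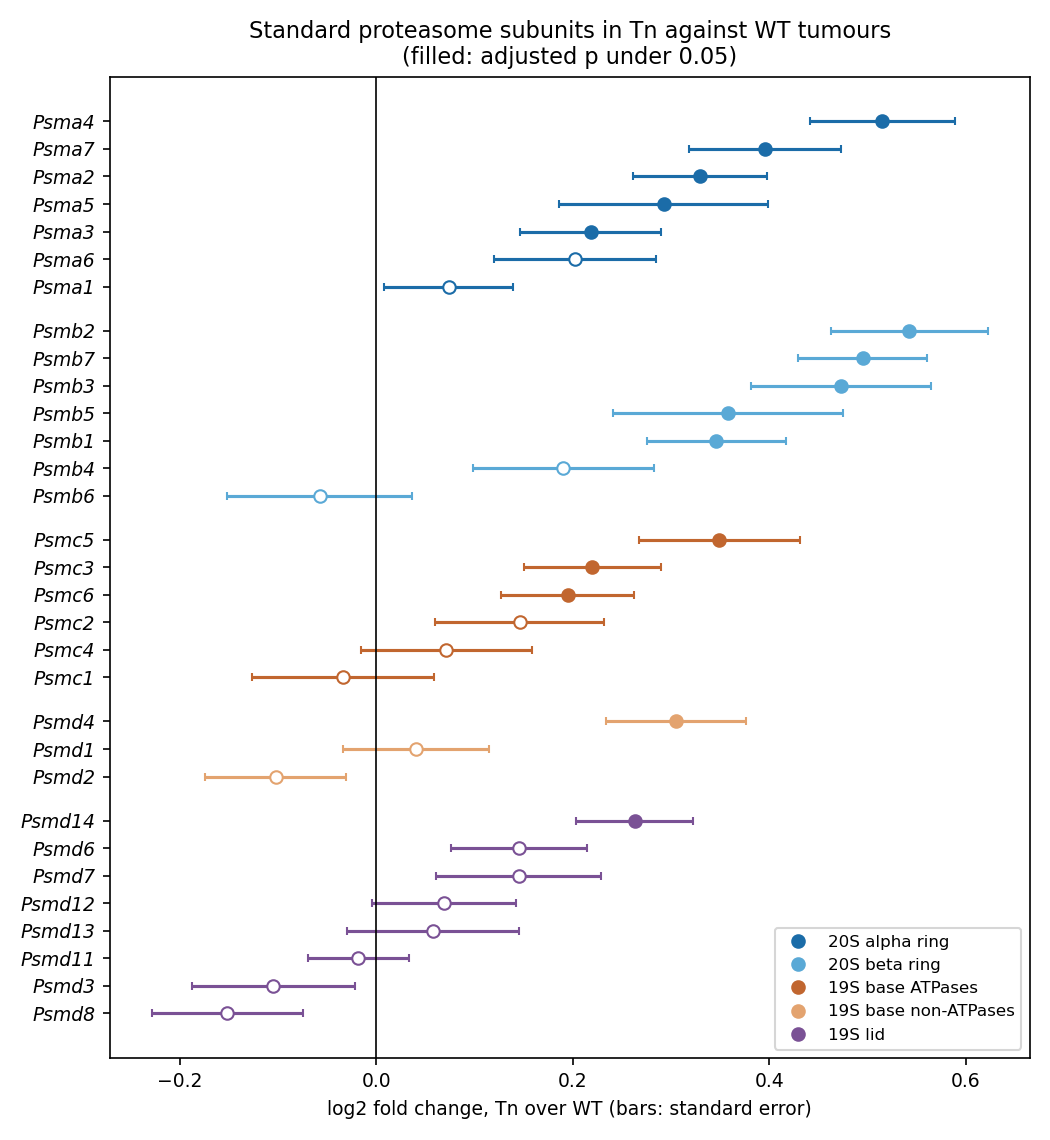
Log2 fold change, Tn over WT, of each of the 31 subunits (horizontal axis), with its standard error as a bar, grouped by place in the complex; filled points passed the test. Both rings of the core lie mostly to the right of 0, the lid lies around 0, and the highest value is 0.54 for Psmb2.

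Whole tumour RNA was measured, so a smaller share of cells of a type and less RNA per cell cannot be told apart. Other cell types moved with the groups. All 6 T cell markers rose, from a summed 2.7 to 14.9 CPM in WT to 34.1 to 313 CPM in Tn tumours, and none was at 0 in any tumour. Of 6 macrophage markers 4 rose, with summed levels of 703 to 1094 and 1066 to 3345 CPM. All 3 tested B cell markers rose, and the summed level of the list was 0.565 to 1.24 CPM in WT, 579 CPM in Tn tumour 4 and 1.06 to 2.61 CPM in the other Tn tumours; Ms4a1 was at 0 in WT tumour 3. Of 6 fibroblast markers 5 fell and 1 rose, with summed levels of 6911 to 18668 and 2895 to 4148 CPM. Endothelial markers fell in 4 of 5 cases, with summed levels of 239 to 426 and 164 to 304 CPM, and proliferation genes in 5 of 8, with summed levels of 1688 to 1932 and 1072 to 1676 CPM. Of the keratinocyte markers 1 of 4 rose, Krt16, at 552 CPM in Tn tumour 6, 0.426 to 1.21 CPM in the other Tn tumours and 0.66 to 3.8 CPM in WT tumours. The list summed to 51.9 to 816 CPM in WT, 3488 CPM in Tn tumour 6 and 16.7 to 139.8 CPM in the other Tn tumours. Of the remaining lists 1 of 5 adipocyte and 1 of 6 epithelial markers fell. Of 5 neutrophil and 6 skeletal muscle markers 0 passed in edgeR, also at an unadjusted p under 0.05. The part of these shifts in the subunits' differences was not tested.

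The outer alpha ring opens and closes the entry to the core. Of its 7 subunits 5 rose (Psma2, Psma3, Psma4, Psma5 and Psma7), and the median log2 fold change was 0.29. The change was largest for Psma4 (ENSMUSG00000032301, GRCm39 chromosome 9, 54858066 to 54866448). Its level was 86.2, 106 and 109.9 CPM in the lowest, median and highest WT tumour and 133, 145 and 166 CPM in Tn tumours. The groups did not overlap, and Tn tumours 1 and 2 were the highest. The log2 fold change was 0.52 ± 0.07 (SE; adjusted p = 0.000312).

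Psma7 (chromosome 2, 179678155 to 179684421) held 169, 189 and 197 CPM in WT and 218, 234 and 282 CPM in Tn tumours, again lowest, median and highest. Its groups were also apart, with Tn tumours 1 and 2 well above the other 4, and the log2 fold change was 0.40 ± 0.08 (adjusted p = 0.00204). Psma2 (chromosome 13, 14787804 to 14848821) held 104.5, 124 and 128 CPM in WT and 142, 146 and 167 CPM in Tn tumours. It too was higher in every Tn tumour, with a change of 0.33 ± 0.07 (adjusted p = 0.00284). The subunit with the largest p in the ring was Psma1, at 98.3, 119 and 128 CPM in WT and 113, 125 and 129.9 CPM in Tn tumours. Its groups overlapped over most of their range, and the log2 fold change was 0.07 (adjusted p = 0.401).

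Psma3 (0.22) and Psma5 (0.29) passed the test with overlapping groups and lost the call in 10 and 14 of 20 alternative settings, for Psma5 among them the one without the 3 tumours that stand apart (adjusted p = 0.0544). Psma5 (93.0 to 133 CPM in WT, 112.2 to 157 CPM in Tn tumours) has a pair of processed pseudogenes at least 95% identical over at least 50% of its transcript, so its reads may be divided. Psma6 (157 to 192 CPM in WT, 163 to 226 CPM in Tn tumours) did not pass the test (0.20, adjusted p = 0.0715). It passed in 2 of the alternatives, among them the one without the 3 tumours that stand apart.

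The inner beta ring carries the active sites. Here also 5 of 7 subunits rose, with a median log2 fold change of 0.36, and the ring held both the largest change of all members and one below 0. Psmb7, Psmb5 and Psmb6 are the catalytic subunits, with trypsin-like (beta 2), chymotrypsin-like (beta 5) and caspase-like (beta 1) activity. Psmb1, Psmb2, Psmb3 and Psmb4 are structural.

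Psmb7 (ENSMUSG00000026750, chromosome 2, 38478044 to 38534099) held 76.7, 83.6 and 89.5 CPM in the lowest, median and highest WT tumour and 108, 113 and 133 CPM in Tn tumours. The groups were far apart for their spread, and 11.8% of its exon bases are shared with Nek6, whose reads cannot be told from its own there. The log2 fold change was 0.50 ± 0.07 (SE; adjusted p = 0.000201). Psmb5 (ENSMUSG00000022193, chromosome 14, 54850776 to 54855481) held 22.1, 31.5 and 37.8 CPM in WT and 34.3, 38.6 and 45.1 CPM in Tn tumours. WT tumour 6, at the top of its group, lay above Tn tumours 3 and 4, and WT tumour 1 was the lowest. The change was 0.36 ± 0.12 (adjusted p = 0.0302), and the call was lost in 6 of 20 alternatives, with adjusted p up to 0.0739. Psmb5 shares 12.1% of its exon bases with Mir686.

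Psmb6 (ENSMUSG00000018286, chromosome 11, 70416183 to 70418684) was not among the subunits that rose. Its level was 104, 126 and 148 CPM in WT and 105, 117 and 141 CPM in Tn tumours, so that the groups covered nearly the same range. The log2 fold change was -0.06 ± 0.09 (adjusted p = 0.658) and lay between -0.11 and -0.003 in the 20 alternatives. The Psmb7 to Psmb6 ratio of CPM, which does not depend on the scaling, was 0.605 to 0.736 in WT and 0.766 to 1.14 in Tn tumours. These ranges did not overlap; this ratio was chosen after its values were seen and was not tested.

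Among the structural beta subunits, Psmb2 (chromosome 4, 126571423 to 126606667) held 87.2, 100.4 and 109.6 CPM in WT and 134, 138 and 163 CPM in Tn tumours. Every Tn tumour was higher, and Tn tumours 1 and 2 were above the other 4 by more than those differed among themselves. The log2 fold change was 0.54 ± 0.08 (SE; adjusted p = 0.000383). Psmb3 (chromosome 11, 97594073 to 97604335) held 61.9, 77.0 and 86.3 CPM in WT and 94.2, 105 and 116 CPM in Tn tumours. Its groups were apart as well, with a change of 0.47 ± 0.09 (adjusted p = 0.00195). Psmb1 rose by 0.35 with groups apart, and Psmb4 (182 to 243 CPM in WT, 219 to 287 CPM in Tn tumours) did not pass the test (0.19, adjusted p = 0.122).

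**Figure D2:**
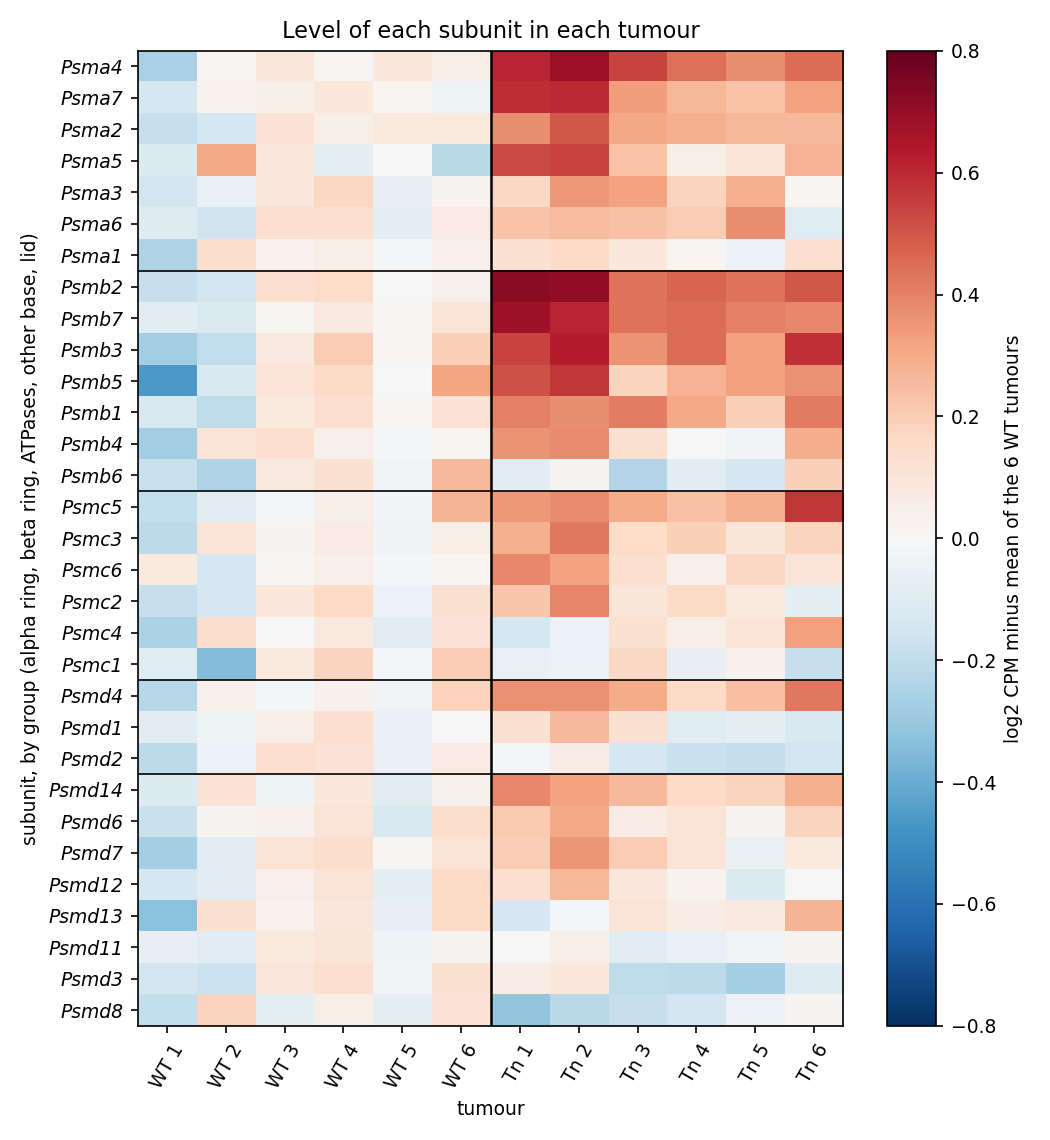
Level of each subunit (rows) in each of the 12 tumours (columns), as log2 CPM minus the mean of the 6 WT tumours; red is higher and blue lower. Tn tumours 1 and 2 are the darkest red in the core rows, WT tumour 1 is blue in nearly all rows, and the lid rows differ little between groups.

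The 19S base unfolds substrates with 6 ATPases. Of these 3 rose (Psmc3, Psmc5 and Psmc6), 3 did not pass, and no ATPase had groups that were apart. The median log2 fold change was 0.17. Psmc5 (ENSMUSG00000020708, chromosome 11, 106146951 to 106156291) held 102, 115 and 141 CPM in WT and 137, 146 and 173 CPM in Tn tumours. WT tumour 6 alone lay inside the Tn range. The change was 0.35 ± 0.08 (SE; adjusted p = 0.00568) and passed in all 20 alternatives.

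Psmc3 held 126, 150.2 and 157 CPM in WT and 156, 166 and 196 CPM in Tn tumours. WT tumour 2 lay just above Tn tumour 5, the groups were otherwise apart, and 8.25% of its exon bases are shared with Slc39a13. The change was 0.22 ± 0.07 (adjusted p = 0.0268). For Psmc6 the levels were 123, 137 and 143 CPM in WT and 139, 150.3 and 177 CPM in Tn tumours. WT tumour 1, otherwise low, was its highest WT tumour, and the change was 0.19 ± 0.07 (adjusted p = 0.0386). The calls of Psmc3 and Psmc6 were lost in 5 and 11 of 20 alternatives, for Psmc3 among them the one without the 3 tumours that stand apart (adjusted p = 0.0503). Psmc1 had the largest p of the ATPases, at 149.6, 195 and 217 CPM in WT and 167, 183 and 213 CPM in Tn tumours, with a change of -0.03 (adjusted p = 0.798). Its change ran from -0.09 to 0.07 in the 20 alternatives, the highest without the 3 tumours that stand apart. Psmc2 (0.15) and Psmc4 (0.07) did not pass the test either.

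The base also holds subunits that are not ATPases. Psmd4, a ubiquitin receptor, was the only one of these 3 that rose. It held 105, 125 and 141 CPM in WT and 137, 156 and 165 CPM in Tn tumours, with WT tumour 6 above Tn tumour 4 as the only overlap. The log2 fold change was 0.31 ± 0.07 (SE; adjusted p = 0.00558). Psmd1 and Psmd2 are the scaffolds on which ubiquitin receptors and shuttle factors dock. Psmd2 held 295, 344 and 375 CPM in WT and 299.9, 310.2 and 356 CPM in Tn tumours, and its groups overlapped (-0.10, adjusted p = 0.283). Psmd1, at 192, 202 and 222 CPM in WT and 188, 208 and 244 CPM in Tn tumours, had the largest p (0.04, adjusted p = 0.694), and its sign turned with upper-quartile scaling and with the filter at a mean CPM of 1.

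Of the 8 lid subunits only Psmd14 passed the test, and the median log2 fold change was 0.06. Psmd14 is the metalloprotease that cuts ubiquitin chains from substrates as they enter. It (ENSMUSG00000026914, chromosome 2, 61542026 to 61631607) held 90.4, 97.6 and 106 CPM in WT and 109, 118 and 127 CPM in Tn tumours. It was also the only regulator subunit with groups apart, with a change of 0.26 ± 0.06 (SE; adjusted p = 0.00462). Psmd6, next by p, held 70.3, 81.0 and 87.5 CPM in WT and 80.6, 87.7 and 98.1 CPM in Tn tumours, with overlapping groups (0.15, adjusted p = 0.118).

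Psmd8 had the lowest fold change of all members. It held 148, 168 and 192 CPM in WT and 136, 151 and 172 CPM in Tn tumours. Tn tumour 1 was the lowest of all 12 and Tn tumour 6 the highest of its group, and the change of -0.15 ± 0.08 did not pass the test (adjusted p = 0.141). Psmd11, with the largest p of the lid, held 139, 147 and 159 CPM in WT and 139, 147 and 153 CPM in Tn tumours (-0.02, adjusted p = 0.8). Its change ran from -0.07 to 0.002 in the 20 alternatives. Psmd3 (-0.10), Psmd7 (0.14), Psmd12 (0.07) and Psmd13 (0.06) overlapped too and did not pass.

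The summed levels show the same split. The 14 core subunits summed to 1565, 1808 and 1887 CPM in the lowest, median and highest WT tumour and to 2045, 2147 and 2401 CPM in Tn tumours. The groups were apart, and the Tn mean was 23.2% above the WT mean. The 17 regulator subunits summed to 2292, 2570 and 2756 CPM in WT and to 2558, 2680 and 2906 CPM in Tn tumours. Here the groups overlapped, and the means differed by 4.72%. The ratio of the core sum to the regulator sum was 0.670 to 0.712 in WT and 0.798 to 0.847 in Tn tumours, with no overlap. The sums are of read counts and not per length, so the ratio serves to compare tumours and not to count complexes. It was chosen with the gene results known and has no test.

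**Figure D3:**
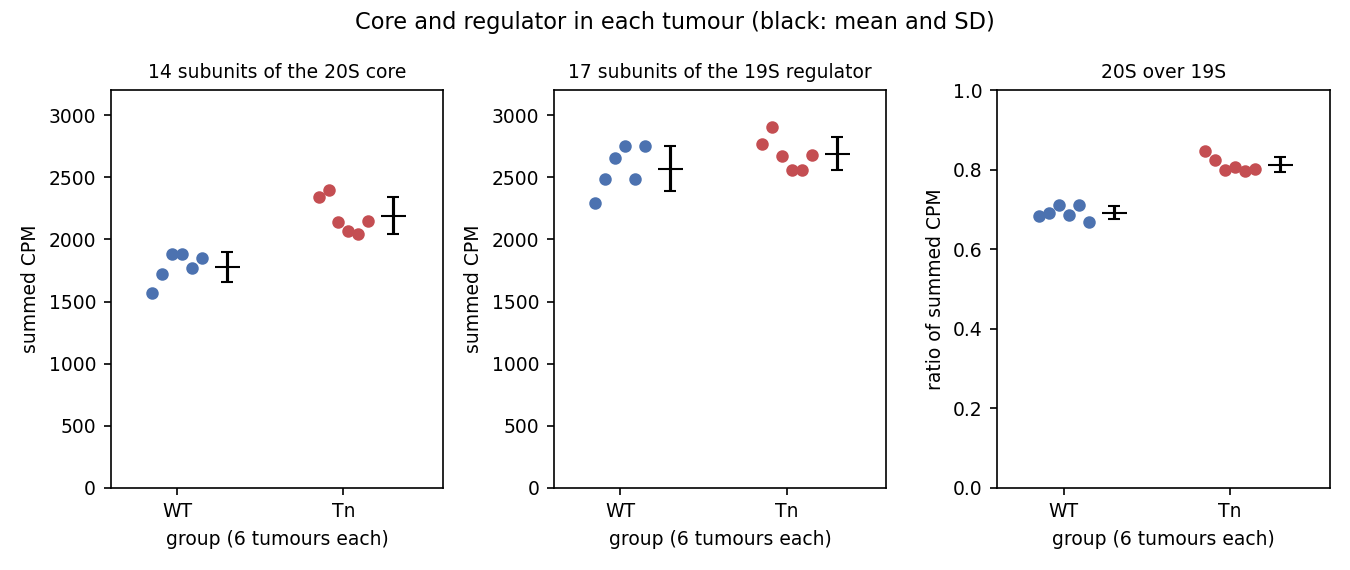
Summed CPM of the 14 core subunits, of the 17 regulator subunits, and the ratio of the first to the second, for each tumour (points) with the mean and SD (black), WT in blue and Tn in red. The core sums and the ratios of the groups are apart, at up to 1887 against at least 2045 CPM and up to 0.712 against at least 0.798, and the regulator sums overlap.

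Within a group, most subunits varied in parallel from tumour to tumour. Over the 465 pairs of members the median Pearson correlation of log2 CPM was 0.667 in the 6 WT and 0.544 in the 6 Tn tumours, where over 3850 genes of the table it was -0.001 and -0.002. The 3850 genes were of any level, and no correlation was computed for genes within the members' range of mean CPM. All these correlations are descriptions over 6 tumours that share their scaling and cell mixture. In WT tumours the core and the regulator were alike, with median correlations of 0.681 and 0.696 within each. There Psma5 had a negative median correlation with the other members (-0.187). In Tn tumours the value was 0.626 within the core and 0.415 within the regulator, where Psmc4 (-0.515), Psmd8 (-0.495), Psmd13 (-0.453) and Psmc1 (-0.201) had negative median correlations with the other members. WT tumour 1 was the lowest WT tumour for 22 of the 31 subunits. Tn tumour 2 was the highest Tn tumour for 18, and Tn tumour 5 the lowest for 13. The median coefficient of variation of the members was 9.19% in WT and 8.60% in Tn tumours, against 9.77% and 11.2% in genes of like level.

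Levels of different subunits can be compared only per length. Ranked over all 12 tumours with the exon length of the deposited table, the highest were Psma6 (142 ± 12.6 CPM per kilobase in WT tumours, SD), Psmb4 (114 ± 11) and Psmb2 (82.5 ± 7.84 in WT and 120.2 ± 11.5 in Tn tumours). On that scale Psmd11 (23.2 ± 1.26 in WT tumours), Psmd13 (26.1 ± 3.01) and Psmd1 (28.1 ± 1.55) ranked lowest. In WT tumours alone Psmb7 (24.3) and Psmc2 (27.5) lay below Psmd1, and Psmc1 (99.1), Psmd2 (84.9) and Psmc5 (84.0) above Psmb2. Those lengths join the exons of all transcripts, and some of these are long and may be rare. With the length of the canonical transcript the highest were Psma7 (197 ± 10.7), Psmb4 (188 ± 18.2) and Psma6 (168 ± 14.9), and the lowest were Psmb5 (18.1 ± 3.18), Psmb2 (24.7 ± 2.35) and Psma3 (33.9 ± 2.7). Psmb2 thus ranked 3 of 31 by one length and 30 of 31 by the other, and the Spearman correlation of both scales over the members was 0.528. For Psmb2 the canonical transcript is longer than the deposited exons (4019 against 1204 bases), as it is for Psmb5 (1701 against 899). Reads were counted only over the deposited exons, so the canonical length divides the counts of these genes by bases that were not counted. Some members held like places by both lengths, Psma6 (1 and 3), Psmb4 (2 and 2) and Psmc3 (11 and 11) among them, and others did not.

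The immunoproteasome subunits and the 11S cap, which replace standard subunits and the 19S cap, had larger fold changes than any standard subunit. All 5 of 5 passed the test, all with groups apart, with a median log2 fold change of 1.02. Psmb8 (beta 5) held 91.9, 158 and 202 CPM in WT and 261, 344 and 399 CPM in Tn tumours, a change of 1.13 ± 0.18 (adjusted p = 0.000619). Psmb9 (beta 1) held 29.6, 100.5 and 146 CPM in WT and 159, 251 and 300.4 CPM in Tn tumours, a change of 1.33 ± 0.30 (adjusted p = 0.00443). For Psmb10 (beta 2) the levels were 74.8, 128 and 176 CPM in WT and 182, 267 and 369 CPM in Tn tumours, a change of 1.02 ± 0.21 (adjusted p = 0.00271). WT tumour 6 was the lowest WT tumour in all 3, while it was the highest WT tumour for Psmb5, Psmb6 and Psmb7. Psme1 (0.85 ± 0.14) and Psme2 (0.85 ± 0.14), the subunits of the 11S cap, also rose, and Psme2 has the near-identical Psme2b. Of their exon bases, Psmb8 shares 14.7% with Gm20496 and Psmb9 shares 5.79% with Tap1, whose reads cannot be told apart there without strand or exclusive bases. Of 263 tested genes within 5 Mb of Psmb8, 102 rose and 21 fell, with a median of 0.29, and Psmb9 lies in the same region. Around Psmb10 32 of 120 rose and 9 fell (0.11), and around Psme1 47 of 167 rose and 17 fell (0.17).

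**Figure D4:**
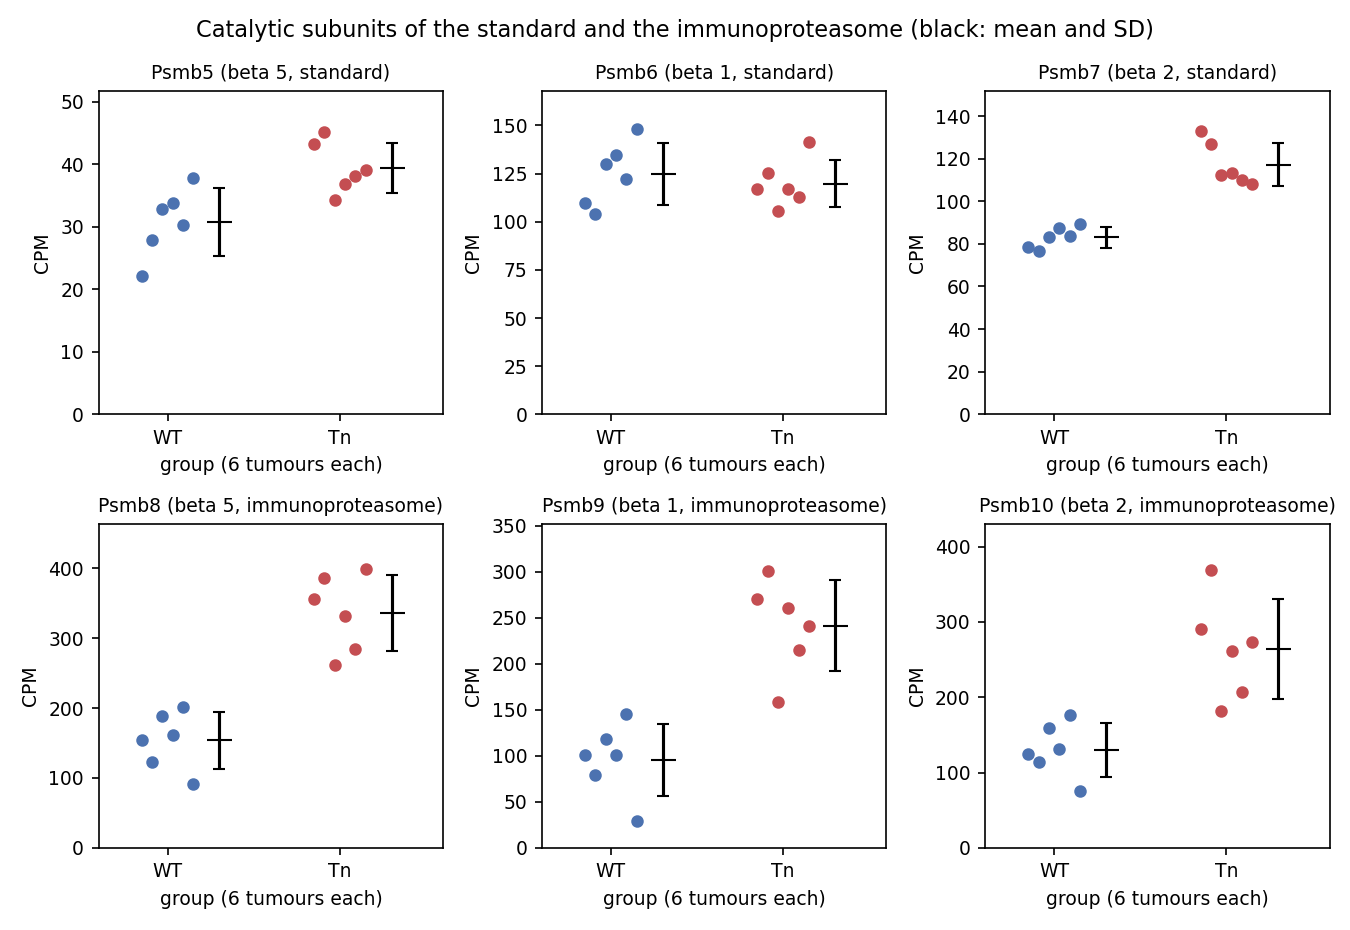
CPM of the 3 standard catalytic subunits (top) and of the immunoproteasome subunit that takes the same place (bottom) in each tumour (points), with the mean and SD (black), WT in blue and Tn in red; each vertical axis starts at 0. Psmb6 covers the same range in both groups, Psmb7 and all 3 immunoproteasome subunits are apart, and Psmb5 overlaps in part.

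The ratio of each immunoproteasome subunit to the standard subunit at the same place was tested over tumours, which needs no scaling. An exact permutation test, two-sided and over all ways to assign 12 tumours to the groups, was run on each of the 3, and the p-values were adjusted over them. Psmb9 to Psmb6 rose 2.85-fold (log2 difference 1.51, adjusted p = 0.00325, exact test). Psmb8 to Psmb5 rose 1.73-fold (0.79, adjusted p = 0.00325, exact test), and both reached the smallest p the test can give, 0.00216 before adjustment. Without the 3 tumours that stand apart the Psmb8 to Psmb5 difference was 0.50, with an adjusted p = 0.0357 in the exact test. Psmb10 to Psmb7 rose 1.45-fold (0.54, adjusted p = 0.0238, exact test). It was 0.30 without the 3 tumours that stand apart, and the call was lost (adjusted p = 0.167, exact test). The call was also lost without WT tumour 6 (0.37, adjusted p = 0.0541), without Tn tumour 2 (0.46, adjusted p = 0.0584) and without Tn tumour 6 (0.50, adjusted p = 0.0563, exact tests).

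Per length, the median ratio of Psmb9 to Psmb6 was 0.427 in WT and 1.06 in Tn tumours by the deposited length, and 0.639 and 1.58 by the canonical transcript. By both lengths it was below 1 in every WT tumour, and by the canonical length above 1 in every Tn tumour. For Psmb8 to Psmb5 the medians were 1.40 and 2.23 by the deposited length and 5.28 and 8.40 by the canonical transcript. For Psmb10 to Psmb7 they were 3.11 and 4.50, and 1.37 and 1.98. The canonical ratio of Psmb8 to Psmb5 divides the Psmb5 counts, taken over 899 deposited bases, by 1701 bases, which raises the ratio. The size of a ratio between genes depends on the length used, and its change between groups does not.

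Of 52 tested other genes of the pathway in 9 lists, the immunoproteasome among them, 26 rose (50%, against 19.5% of all genes) and 7 fell (13.5%, against 17.4%). Beyond the members, the 19S regulator has a pair of further subunits. Sem1, a small subunit of the lid, held 62.3, 82.5 and 89.2 CPM in WT and 147, 171 and 193 CPM in Tn tumours, with groups far apart (1.09 ± 0.09, adjusted p = 1.41e-05). The genes around it were also higher: of 37 tested genes within 5 Mb on chromosome 6, 17 rose and 6 fell, with a median of 0.44. Adrm1, a ubiquitin receptor with a near-identical copy, did not pass (0.14, adjusted p = 0.127). Of the other caps and the inhibitor, Psme4, which activates the core without ATP, fell by 0.35 (adjusted p = 0.000856) and Psmf1, an inhibitor of the core, rose by 0.28 (adjusted p = 0.00431), both with groups apart. Of 60 tested genes within 5 Mb of Psme4, 9 rose and 22 fell, with a median of -0.25. Psme3, the nuclear 11S cap, did not pass (-0.16). Psma8, the alpha subunit of the testis, rose by 0.67 at levels below 1 CPM, and Psmb11, the beta subunit of the thymus, was too low to be tested.

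A list of 9 genes held assembly chaperones and Akirin2. Of these 4 rose (44.4%, against 19.5% of all genes tested) and 0 fell (against 17.4%) in edgeR. At an unadjusted p under 0.05, 5 were higher, Akirin2 among them (0.18, adjusted p = 0.0815). Over all genes 9009 of 19255 passed that limit, in either direction. The smallest p-values were those of Psmd10, a chaperone of the base (0.64 ± 0.13, adjusted p = 0.00298), Pomp, which matures the core (0.37 ± 0.08, adjusted p = 0.00305), and Psmg4, a chaperone of the alpha ring (0.52 ± 0.11, adjusted p = 0.00327). Pomp held 107 to 144 CPM in WT and 152 to 192 CPM in Tn tumours. Psmg2 rose as well (0.27), while its partner Psmg1 did not pass (-0.06). Of the base chaperones, Psmd5 (-0.04) and Psmd9 (-0.04) did not pass. A list of proteasome transcription factors, the genes that process them, Zfand2a and Zfand5 was divided. Of its 6 genes 3 rose (50%, against 19.5% of all genes tested) and 1 fell (16.7%, against 17.4%). Nfe2l1 encodes the factor that raises proteasome genes when proteasome activity is low, and it rose by 0.31 ± 0.10 (adjusted p = 0.0289), with Tn tumours at 425 to 630 CPM and WT tumours at 365 to 494 CPM. Nfe2l2 (0.32, adjusted p = 0.0219) and Zfand5, which binds the 26S proteasome (0.49, adjusted p = 0.00296), also rose. Ddi2, the protease that cuts the Nfe2l1 protein to its active form, fell by 0.25 (adjusted p = 0.0099), and every Tn tumour lay below every WT tumour. It shares 18.3% of its exon bases with another gene. Of 107 tested genes within 5 Mb of Ddi2, 40 rose and 10 fell, with a median of 0.23.

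Ubiquitin itself and its shuttles were divided too. Of the 6 ubiquitin and E1 genes 3 rose and 2 fell: Ubb rose by 0.27 (adjusted p = 0.00536), and the E1 enzymes Uba6 and Uba1 fell by 0.29 and 0.34 (adjusted p = 0.00422 and 0.0141). Of 10 proteasome-bound receptors and enzymes 4 rose and 2 fell. Ubqln2, a shuttle for ubiquitinated proteins, had the largest rise (1.29 ± 0.14, adjusted p = 6.13e-05), from 11.8 to 22.9 CPM in WT to 41.1 to 48.1 CPM in Tn tumours. The ligase Ube3c fell by 0.36 (adjusted p = 0.000931). Of 10 genes of the Vcp segregase, which extracts proteins for degradation, 4 rose and 1 fell. Ubxn1 (0.46, adjusted p = 0.000407), Faf1 (0.37, adjusted p = 0.000727) and Vcp (0.35, adjusted p = 0.00631) had the smallest p-values of that list, and Vcp has a near-identical pseudogene. Of 283 tested genes within 5 Mb of Ubxn1, 126 rose and 12 fell, with a median of 0.31. Around Vcp 41 of 116 rose and 12 fell (0.20), and around Faf1 23 of 70 rose and 9 fell (0.17).

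The 31 subunits lie on 14 chromosomes. The genes tested within 5 Mb of each member had median log2 fold changes between -0.21 (around Psma1) and 0.22 (around Psma4). Around the 15 subunits that rose the middle of these medians was 0.07, and around the other 16 it was -0.001. Of all 31 members 26 lay above the median of their neighbours. Each of the 15 did so, but they were picked for a positive fold change, which favours this. Around Psma4 48 of 136 genes rose and 21 fell, and around Psmb2 48 of 128 rose and 9 fell. Around Psmb7 the genes had a median of -0.001, with 10 higher and 9 lower of 67. The part of the region in each change was not tested. Near-identical copies elsewhere exist for 4 of the 31 members (Psma5, Psmb3, Psmd2 and Psmd11), so their reads may be divided, and Psmd1 and Psmd13 share 7.61% and 10.1% of their exon bases with neighbouring genes.

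Promoters of 25 of the 31 members matched the RefSeq promoter table (GRCm38.p6), and the 250 bases before each start were searched on both strands; Psmb1, Psmb2, Psmb7, Psmc3, Psmd3 and Psmd7 were not matched. The antioxidant response element (ARE) bound by the factors Nfe2l1 and Nfe2l2 was searched by the letters TGACNNNGC and was found in 4 of 25 members (16%) and in 10.2% of all 32851 promoters. The members were Psmb5, Psmb6, Psmc6 and Psmd12, of which Psmb5 and Psmc6 rose. The letters thus stood in 2 of 11 matched subunits that rose and in 2 of 14 that did not pass. A CCAAT box stood in 10 of 25 (40%, against 33.8% of all) and a GC box, GGGCGG, in 14 of 25 (56%, against 32.7%). The heat shock element (GAA, NN, TTC, NN, GAA in a row) was found in 0 of 25 (0.466% of all), and the interferon-stimulated element core (GAAA, NN, GAAA in a row) in 2 of 25, Psmb3 and Psmd4 (8%, against 2.98%). A member was counted if any of its promoter entries matched, while the share of all is over single entries, so the percentages differ in unit. No motif searched contains another, and a match is a run of letters and not a bound site.

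Psma4 was chosen for the smallest p of the matched members, and Psmb5 and Psmb6 were chosen as catalytic subunits. Of them Psma4 and Psmb5 rose, and Psmb6 did not pass the test. Sequences before the start of these 3 genes are shown. They are 5′ to 3′ on the strand of the gene, with the ARE match in capitals: Psma4 at chr9:54950662-54950781 (plus strand), Psmb5 at chr14:54618025-54618144 (minus strand) and Psmb6 at chr11:70525237-70525356 (plus strand), all in GRCm38.p6. Bases that annotated transcripts cover were left out, 77 before the start for Psma4 and 29 for Psmb5. Psmb3, next by p among the matched members, is not shown because too few bases remained.
Psma4: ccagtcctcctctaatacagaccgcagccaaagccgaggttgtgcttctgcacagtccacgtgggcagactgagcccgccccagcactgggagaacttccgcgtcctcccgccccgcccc
Psmb5: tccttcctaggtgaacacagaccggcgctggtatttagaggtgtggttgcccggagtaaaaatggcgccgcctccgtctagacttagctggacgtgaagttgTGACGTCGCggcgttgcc
Psmb6: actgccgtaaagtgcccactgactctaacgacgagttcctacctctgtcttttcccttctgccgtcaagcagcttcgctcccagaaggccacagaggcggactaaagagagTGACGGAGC
The match ends 39 bases before the start in Psmb5 and directly before it in Psmb6, and the window of Psma4 holds none. Among these 3 picked promoters the ARE letters stand before a subunit that rose and before one that did not pass. They are absent from the window of Psma4, which rose. A link between the letters and the rises was not tested.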

How the data were processed

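Per the submitters' processing notes, the tools were FastQC, fastp 0.23, the aligner STAR 2.7.11a (genome GRCm39) and, for counting, featureCounts (Subread 2.1.1). The deposited values are raw counts over exons per gene of Ensembl 112, per the file headers, without strand and without counting a pair once. Of counts from 1 to 20, 69.5% were even, so most pairs add 2. The deposited exon length in bases served only for levels per length. Symbols and positions came from GENCODE vM39, a later annotation (56630 of 57186 identifiers matched).

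Computed here were TMM-scaled CPM, and edgeR 4.0.16 quasi-likelihood tests (R 4.3.3, filterByExpr by group, robust fit), Benjamini-Hochberg adjusted over 19255 genes with a threshold of 0.05. A standard error is the absolute log2 fold change over the square root of F. The common biological coefficient of variation was 0.358, and all pairs of libraries of a group differed by more than sampling noise (chi-square per degree of freedom at least 41.4). Ratios of catalytic subunits are log2 ratios of counts, with 2 added to each count. Copies were found with BLAST+ 2.17.0.

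The members and lists were chosen with earlier results of these data known. Of 149 list genes 147 were found; Lor and Paaf1 were not analysed, and the values of some list genes are not reported here. Named with values are C1galt1c1, the catalytic subunits, from each group of members up to 3 with the smallest p and the one with the largest p, the 3 highest and lowest per length, all immunoproteasome and 11S subunits, and up to 3 with the smallest p from each other list. Further genes were named after their values were seen. The alternatives were DESeq2 1.42.0, limma 3.58.1 voom with quality weights, scaling by RLE or by the upper quartile, no filter, a mean CPM of at least 1, an adjusted p under 0.01, each tumour left out, a block for the replicate number and, chosen after seeing the data, removal of the 3 tumours that stand apart. The labels do not tie the tumours to separate mice, so p-values measure only the spread between these samples.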

Additional observations from a re-analysis of the deposited data

Results flagged for a closer look

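Of 84 groups of 6 tumours checked, 2 held a tumour far from the other 5, and about 1 in 20 would by chance. The level of Psma4 was 86.2 CPM in WT tumour 1 and 104 to 109.9 CPM in the other 5 WT tumours. Its groups were apart with or without this tumour, which was the lowest WT tumour for 22 of 31 subunits. C1galt1c1 held 12.9 CPM in Tn tumour 1 and 10.8 to 11.2 CPM in the other 5 Tn tumours, and was still below all WT tumours there.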

How the results depend on the processing

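Of the 15 subunits that rose, 10 passed in all 20 alternatives and none changed sign; Psma3, Psma5, Psmb5, Psmc3 and Psmc6 lost the call in at least 1. The number that rose was 10 with upper-quartile scaling and at an adjusted p under 0.01, 12 without a filter or with a mean CPM of at least 1, 14 with RLE scaling, 15 with limma voom, and 10 to 15 with 1 tumour left out, the lowest without WT tumour 5; 0 fell in each. At an adjusted p under 0.01, 2109 genes of the table rose and 1916 fell, and 4 pathway genes fell, as without the 3 tumours that stand apart. With 1 tumour left out, 3210 to 3778 genes of the table rose and 2833 to 3283 fell, and 22 to 27 pathway genes rose and 6 to 7 fell. Upper-quartile scaling gave 3094 higher and 3844 lower genes and so turned the balance of directions over the table. The log2 difference of Psmb10 to Psmb7 was 0.30 without the 3 tumours that stand apart (adjusted p = 0.167, exact test) and 0.37 to 0.64 with 1 tumour left out; the ranges were 0.59 to 0.89 for Psmb8 to Psmb5 and 1.15 to 1.67 for Psmb9 to Psmb6. The replicate numbers do not pair the tumours: correlations of same-numbered tumours ran from -0.125 to 0.158, and 0 of 6 correlated best with their own number. With the number as a block 11 subunits rose, 2998 genes rose and 2878 fell, and the Psmb10 to Psmb7 difference of 0.54 had an adjusted p = 0.125 by exact permutation within pairs. The cause of these changes was not tested. Each member had at least 2687 counts per tumour, so small changes are limited by the spread between 6 tumours.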
